A study of Mus musculus with 4 samples.

Results

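Ribosome biogenesis and nucleolar genes that Myc is known to drive were compared between Apc Min adenomas and Apc Min adenomas labelled as PAF knockout. The group was a fixed list of 47 gene symbols, written in upper case in the deposited table (such as NCL, NPM1 and FBL) and given here in mouse form. Each of the 47 was found once among the 29871 distinct rows of the table. RNA was sequenced from small-intestinal adenomas in 4 libraries. The 2 control libraries came from adenomas of genotype APC Min/+, which carry a germline truncation of Apc, an inhibitor of Wnt signalling. The 2 knockout libraries came from adenomas of genotype PAF KO; APC Min/+, so both groups carry the Apc allele and differ, by their labels, in PAF. Age, sex, the number of mice or adenomas pooled and the altered part of the PAF gene were not stated in the labels, and p-values therefore measure only the spread between these samples, which may be technical. From what is known of the study, PAF is the PCNA-associated factor, the product of Pclaf (row 2810417H13Rik).

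Ribosomes are assembled mainly in the nucleolus. RNA polymerase I transcribes the ribosomal DNA there, small nucleolar ribonucleoproteins (snoRNPs) guide modification of the new RNA, and assembly factors cut, fold and package it into the small and large subunits. The transcription factor Myc, with its partner Max, binds the E-box CACGTG and is known to drive many of these genes, and in the intestine Myc is a target of the Wnt pathway that loss of Apc turns on. Levels below are FPKM, which are fragments scaled by transcript length and by library size, so they can be compared between genes. Differences are knockout minus control of log2(FPKM + 1), a scale on which changes of low genes come out too small.

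The libraries differed in ways that the genotype label does not cover. An estimate from the smallest values gave 13100000 to 24100000 fragments per library, with the most in knockout library 2. Over the 13716 rows that averaged 1 FPKM or more, log2 levels correlated across genes with r = 0.958 between the control libraries and r = 0.821 between the knockout libraries. Knockout library 2 stood apart. It held the female transcript Xist at 46.4 FPKM and the Y-linked Eif2s3y at 0, whereas Xist was at most 0.00861 FPKM and Eif2s3y at least 26.0 FPKM in the other libraries, so the sexes differed within the knockout group. The PAF row read 17.9 and 17.8 FPKM in the controls, against 4.13 and 11.4 in the libraries labelled knockout, which is 0.232 and 0.639 times the control mean. The row was thus lower in both but only partly reduced, least in knockout library 2 (difference -1.24, SE 0.484; limma adjusted p = 0.398). Whether its reads lie outside the altered part of the gene cannot be told, so "knockout" below stands for the label. All 8 intestinal epithelial markers were present, summing to 4840 to 5249 FPKM in 3 libraries and 5679 in knockout library 2. Markers of smooth muscle (6 genes) summed to 189, 190 and 201 FPKM in the controls and knockout library 1 and to 725 in knockout library 2, and 6 fibroblast markers to 262, 266, 332 and 685. The 6 leukocyte markers summed to 70.1 and 62.6 FPKM in the controls and to 71.8 and 198 in the knockouts. Of the 198, Lyz2 made up 157, and 3 of the 6 lay above both controls in both knockouts. Cd3e lay below (1.68 and 2.31 against 0.819 and 1.04 FPKM). The 6 goblet cell markers summed to 4233 and 5155 FPKM against 7428 and 12598. Of the 5 tested, 4 lay above both controls, with a median difference of 0.98. Spink4 (6440 FPKM) and Tff3 (3614) made up most of the goblet sum in knockout library 2. Fcgbp overlapped, at 299 and 340 FPKM against 531 and 105. The 8 proliferation markers summed to 214 and 215 FPKM against 248 and 360. The 8 enterocyte markers summed to 7729 and 8316 against 12108 and 899. Most of the sum in knockout library 1 came from Apoa1 (4799 FPKM), Apoa4 (3251) and Fabp1 (2367), while Sis, Fabp2 and Anpep lay below the controls in both knockouts, at 0.41, 0.67 and 0.36 times the control mean in knockout library 1. None of the 8 lay above both controls in both knockouts, and their median difference was -1.32. Their part in the results below was not tested. In such bulk samples, fewer cells of a type and less RNA per cell cannot be told apart.

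Myc itself read 58.7 and 59.7 FPKM in the controls, against 39.0 and 31.1 in the knockout libraries, a difference of -0.75 (SE 0.189). Both knockout values lay below both control values, and this level was known when the genes were chosen, so it is a description. The 47 genes did not lie below the controls as a group. Their median difference was 0.15, beside 0.00345 for all 13716 tested rows. Against the control mean, the median of the 47 was -0.02 in knockout library 1, where that of all rows was -0.11. It was 0.29 in knockout library 2, beside 0.09 for all rows. In knockout library 1, 20 of the 47 genes (42.6%) lay above the control mean, as did 36.9% of all tested rows, and in knockout library 2 the count was 28 (59.6%), with 54.5% of all rows. Single genes ranged from -0.75 for Exosc5, a subunit of the RNA exosome, to 0.93 for the cap-binding factor Eif4e. Limma called 0 of the 47 genes at an adjusted p under 0.05, where 0.0729% of all tested rows were called, and at an unadjusted p under 0.05 it held 1 higher (Las1l) and 1 lower (Exosc5), where 3.44% and 9.76% of all rows were higher and lower. All 47 passed the filter on low values.

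**Figure D1:**
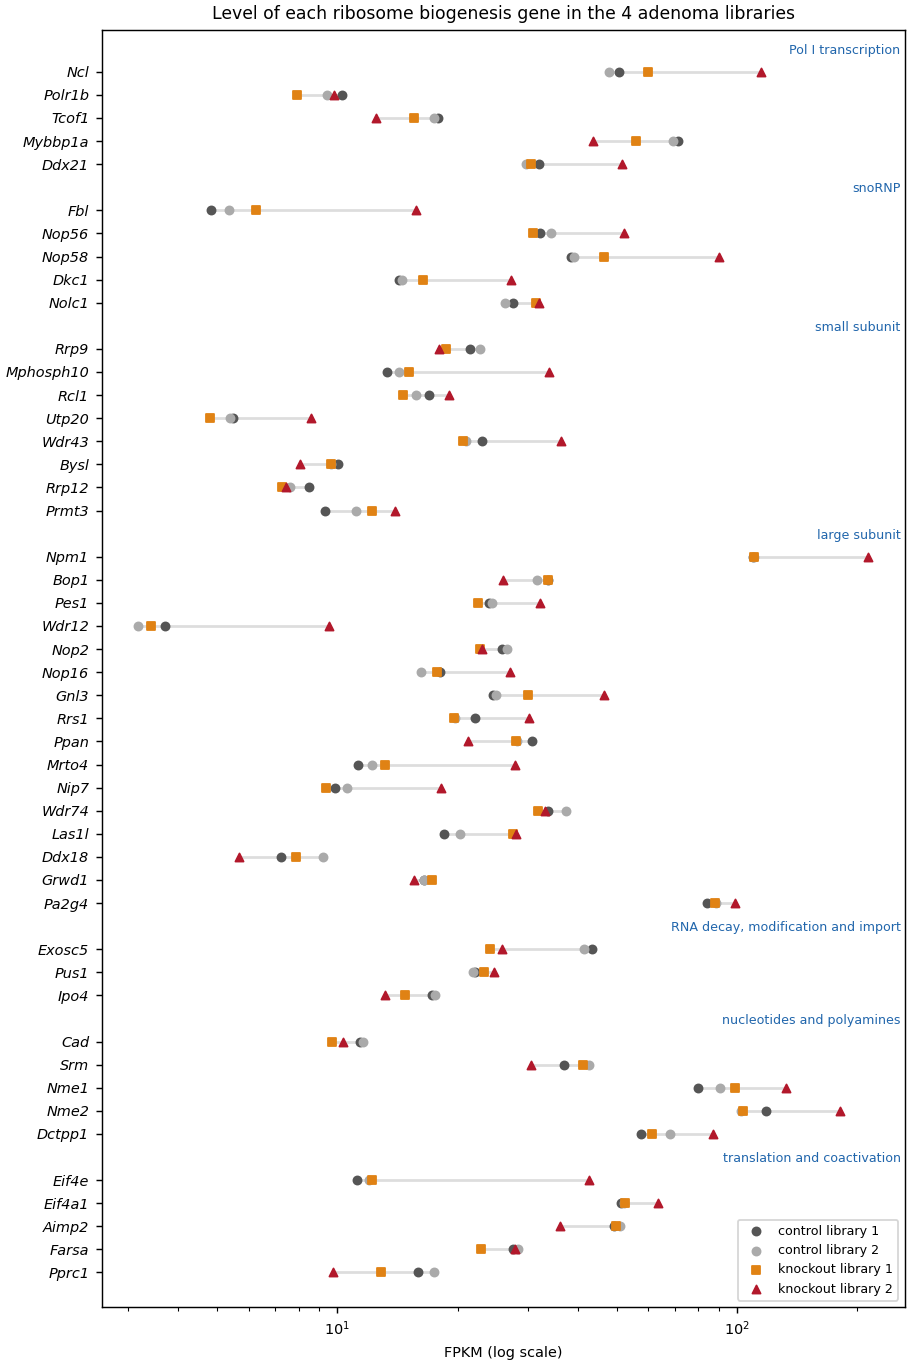
Level of each of the 47 genes in FPKM on a log axis, grouped by role, with 1 point per library and a line over the range of the 4 libraries. The control points lie close together, while knockout library 2 (triangles) is the far point of many genes, such as Eif4e at 42.6 FPKM against 11.2 to 12.2 in the other libraries.

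Counted by separation of the groups, both knockout libraries lay above both controls for 15 of the 47 genes (31.9%), where 21.5% of all tested rows did so. Both lay below for 11 genes (23.4%), where 30.2% of all rows did so, and the groups overlapped for 21. In some genes the nearer knockout passed the controls by less FPKM than the controls differed from each other. These were Npm1, Mphosph10, Prmt3, Nme1, Eif4e and Eif4a1 among those above, and Rrp12, Ppan and Wdr74 among those below. Knockout library 2 lay above knockout library 1 for 35 of the 47 genes (74.5%), against 61.8% of all tested rows. It was the farther knockout for each of the genes above the controls. Among those below, knockout library 1 was the farther for Exosc5, Cad, Nop2, Wdr74 and Rrp12. Over the 47 genes, the gap between the controls had a median of 0.09 and was at most 0.31. The knockout libraries lay apart by a median of 0.41 and by up to 1.72, the value for Eif4e. Counts with 1 knockout library alone have no like share of all tested rows here, so they only describe the 47 genes. With knockout library 1 as the only knockout, 16 genes lay above both controls and 20 below, and the median difference was -0.02. With knockout library 2 as the only knockout the counts were 28 and 17, and the median was 0.29. Limma called 1 of the 47 genes in the former case and 30 in the latter, where 2833 and 8397 rows of the whole table were called, under the assumption that the lone knockout sample varies like the controls.

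**Figure D2:**
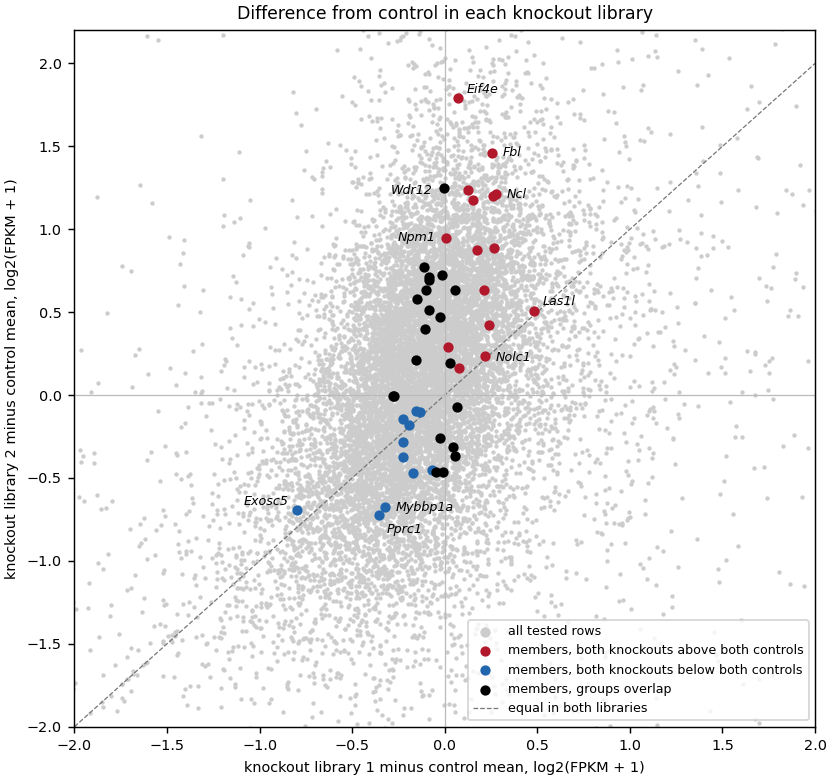
Difference from the control mean in knockout library 1 (x axis) and in knockout library 2 (y axis), on the log2(FPKM + 1) scale, for the 47 genes over all tested rows in grey (rows beyond the axes are not drawn). The genes spread from -0.80 to 0.48 along x and from -0.72 to 1.79 along y, and Las1l and Exosc5 lie near the line of equal values.

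The differences varied with the base composition of the transcripts. GC content was taken from the longest protein-coding GENCODE transcript of each gene and ran from 40.4% for Wdr12 to 59.8% for Srm, a description across genes that share the same 4 libraries. Across the 47 genes it correlated with the difference in knockout library 2 at Pearson r = -0.69 (Spearman rho = -0.65) and in knockout library 1 at r = -0.37 (rho = -0.37). The same held in weaker form over the 11583 tested rows with a GC value, with rho = -0.53 in knockout library 2 and -0.10 in knockout library 1. Of the 24 genes at or below the median GC content of 52.0%, 12 lay above the controls in both knockouts and 0 below. Of the 23 genes with a higher GC content, 3 lay above and 11 below. The difference between the groups correlated with GC content at rho = -0.64 over the 47 genes and -0.43 over the 11583 rows. Like counts over all rows were not made, here or after the trend removal below, so the split is not read as particular to the 47 genes. With a GC and length trend removed from each library, the median of the 47 genes was 0.09, 16 genes lay above and 7 below, and the difference changed sign for 12 genes, whereas that of Myc was -0.75 and that of Exosc5 -0.74. The part of base composition in the single differences was otherwise not tested.

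**Figure D3:**
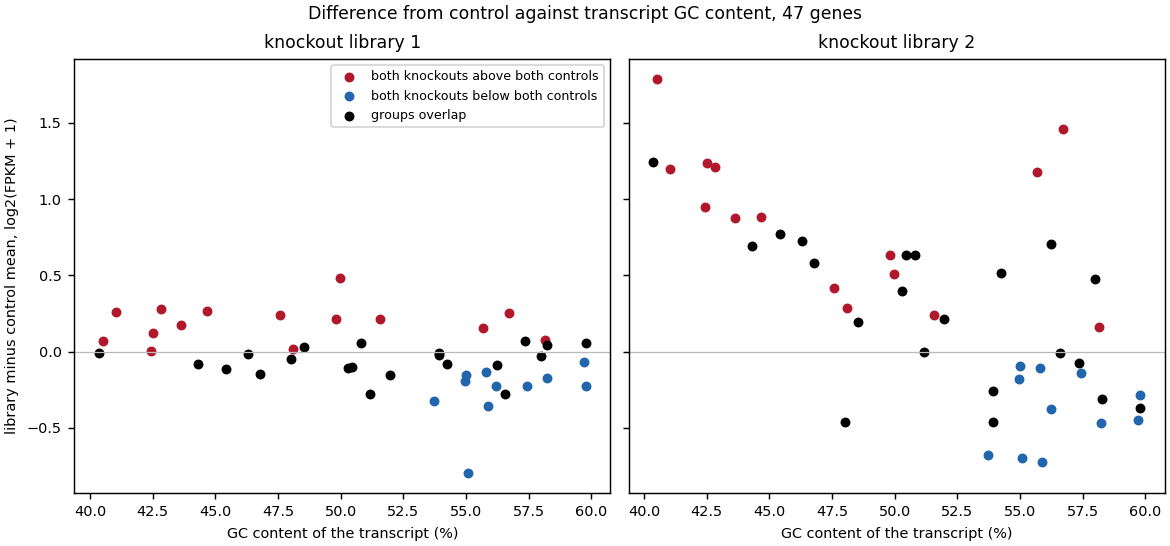
Difference from the control mean (y axis, log2(FPKM + 1)) against transcript GC content in percent (x axis) for the 47 genes, in knockout library 1 (left) and knockout library 2 (right). In knockout library 2 the genes with 40.4% to 44.7% GC lie between 0.70 and 1.79, and the 11 genes below the controls in both libraries all lie above 52.0% GC.

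Promoters were searched for the Myc E-box. RefSeq promoter windows of 300 bases on GRCm38.p6 (250 bases before to 50 after the annotated start) were found for 40 of the 47 genes, and not for Tcof1, Fbl, Rrp12, Npm1, Bop1, Rrs1 and Srm. CACGTG, which reads the same on both strands, was present in at least 1 window of 13 of these 40 genes (32.5%), against 7.15% of all 32851 windows and 11.7% of the 9027 tested genes with a window. The 13 were Mybbp1a, Utp20, Wdr43, Prmt3, Pes1, Nop2, Grwd1, Exosc5, Pus1, Ipo4, Nme1, Eif4e and Eif4a1. Their median difference was 0.14, from -0.75 to 0.93, with 5 above and 4 below the controls. The 27 genes without the motif had a median of 0.23, from -0.54 to 0.74, with 8 above and 5 below. Of all tested rows, 21.5% lay above and 30.2% below. Like counts by motif over all tested genes were not made, so these counts only describe the 40 genes. A match is a run of letters and not a measured binding site. The windows of the 4 most abundant genes with the motif are printed, since they carry the same E-box while their differences run from 0.42 for Nme1 to -0.75 for Exosc5. Each is written 5′ to 3′ on the strand of the gene, with the E-box in capitals. They lie at chr11:93968223-93968522 (minus strand, E-box 18 bases before the start), chr11:72441077-72441376 (plus strand, 40 bases after the start), chr11:69672374-69672673 (minus strand, 189 bases before) and chr7:25658903-25659202 (plus strand, 44 bases before).
Nme1: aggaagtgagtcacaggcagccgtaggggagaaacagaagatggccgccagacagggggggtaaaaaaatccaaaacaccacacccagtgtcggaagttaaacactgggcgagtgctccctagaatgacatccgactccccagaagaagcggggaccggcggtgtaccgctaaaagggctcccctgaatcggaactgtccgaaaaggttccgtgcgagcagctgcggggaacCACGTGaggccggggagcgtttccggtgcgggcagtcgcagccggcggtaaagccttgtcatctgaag
Mybbp1a: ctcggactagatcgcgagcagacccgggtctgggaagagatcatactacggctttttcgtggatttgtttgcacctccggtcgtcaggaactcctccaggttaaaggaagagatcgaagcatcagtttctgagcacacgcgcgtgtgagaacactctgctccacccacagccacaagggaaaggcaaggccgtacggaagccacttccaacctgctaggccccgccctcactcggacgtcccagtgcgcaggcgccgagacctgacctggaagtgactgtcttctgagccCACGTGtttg
Eif4a1: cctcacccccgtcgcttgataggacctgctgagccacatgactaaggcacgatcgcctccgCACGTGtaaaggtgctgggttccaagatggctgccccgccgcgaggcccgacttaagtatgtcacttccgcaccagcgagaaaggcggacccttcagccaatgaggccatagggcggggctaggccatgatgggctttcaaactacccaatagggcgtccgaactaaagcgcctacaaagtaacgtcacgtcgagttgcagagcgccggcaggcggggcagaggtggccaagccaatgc
Exosc5: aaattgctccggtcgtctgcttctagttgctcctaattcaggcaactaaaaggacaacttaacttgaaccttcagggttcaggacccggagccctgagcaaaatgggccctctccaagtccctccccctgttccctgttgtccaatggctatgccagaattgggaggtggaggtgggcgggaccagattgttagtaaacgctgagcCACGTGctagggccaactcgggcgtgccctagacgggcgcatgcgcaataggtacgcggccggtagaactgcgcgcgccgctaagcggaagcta

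Among the 5 genes of ribosomal DNA transcription, Ncl lay above the controls and Tcof1 and Mybbp1a below. Ncl encodes nucleolin, an abundant RNA-binding protein of the nucleolus. It read 50.6 and 47.9 FPKM in the controls, against 59.9 and 115 in the knockout libraries (difference 0.74, SE 0.371, 95% interval -0.31 to 1.80; limma adjusted p = 0.457). Knockout library 1 was 0.28 above the control mean and knockout library 2 was 1.21 above it. Mybbp1a, a nucleolar partner of polymerase I and of several transcription factors, read 71.4 and 69.3 FPKM in the controls, against 56.0 and 43.6 in the knockout libraries (difference -0.50, SE 0.199; adjusted p = 0.402). Tcof1, which encodes treacle, a scaffold of polymerase I transcription, read 17.9 and 17.5 against 15.6 and 12.5 FPKM. Its difference of -0.32 was 0.15 with the GC and length trend removed. Polr1b, the second largest subunit of polymerase I, read 10.3 and 9.41 against 7.93 and 9.82 FPKM, and the helicase Ddx21 read 32.0 and 29.6 against 30.5 and 51.6. The groups overlapped for both.

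Each of the 5 genes grouped here as snoRNP proteins had a positive difference, also with the GC and length trend removed. Of these, 4 lay above the controls in both knockouts, where 21.5% of all tested rows did so. Without knockout library 2 the difference of Nop56 was negative, at -0.10. Of 13 further snoRNP genes given below, 4 (30.8%) lay above and 1 (7.69%) below. Mphosph10 (0.68) and Rrp9 (-0.25), of the particle that makes the first cuts in the precursor RNA, were grouped with the small subunit. Fbl, the methyltransferase of box C/D snoRNPs, read 4.83 and 5.37 FPKM in the controls, against 6.28 and 15.8 in the knockout libraries (difference 0.86, SE 0.465; limma adjusted p = 0.480). Its row rests on the fewest fragments of all 47, an estimated 75.7 in the lowest library, and RefSeq lists a copy named Fbl-ps2, so its level is uncertain. Nop58, a core protein of the same particles, read 38.5 and 39.0 against 46.6 and 90.4 FPKM. Its partner Nop56 read 32.2 and 34.3 against 30.9 and 52.1 FPKM, so knockout library 1 lay below both controls and the groups overlapped. Dkc1, the pseudouridine synthase of box H/ACA snoRNPs, read 14.2 and 14.5 against 16.4 and 27.2 FPKM. Nolc1, a chaperone of both kinds of particle, read 27.5 and 26.3 against 31.4 and 31.9 FPKM (difference 0.23, SE 0.149). It was nearly alike in the 2 knockouts, at 0.22 and 0.24 above the control mean. Over the 5, knockout library 1 had a median of 0.22 and knockout library 2 one of 0.87.

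The 8 genes of small subunit maturation were split. Mphosph10, of the particle that makes the first cuts in the precursor RNA, read 13.3 and 14.3 FPKM in the controls, against 15.1 and 33.9 in the knockout libraries. Prmt3, which methylates a protein of the small subunit, read 9.30 and 11.2 against 12.2 and 14.0 FPKM. These were the 2 (25%) that lay above the controls, where 21.5% of all tested rows did so. Rrp9, a protein of the same early particle, read 21.4 and 22.8 against 18.7 and 17.996 FPKM (difference -0.25, SE 0.151), and Rrp12, an export factor for subunits, read 8.51 and 7.63 against 7.25 and 7.43. These 2 (25%) lay below the controls, where 30.2% of all tested rows did so. Rrp12, though, differed from the lower control by less than the controls differed from each other. For the processing factors Utp20 and Wdr43 the values were 5.49 and 5.38 against 4.81 and 8.61 FPKM, and 23.0 and 21.0 against 20.7 and 36.2, so knockout library 1 was low and knockout library 2 high. Rcl1, which is needed for cleavage of the precursor, had a difference of 0.03 and Bysl, a late factor of the small subunit, of -0.14, and both overlapped.

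Of the 16 genes of large subunit assembly, 4 (25%) lay above the controls, 3 (18.75%) below and 9 overlapped. Of all tested rows, 21.5% lay above and 30.2% below. Las1l, which cuts the spacer between the RNAs of the large subunit, was higher by nearly the same amount in both knockouts. It read 18.5 and 20.3 FPKM in the controls, against 27.5 and 28.0 in the knockout libraries. The difference was 0.50 (SE 0.153, 95% interval 0.06 to 0.93; limma adjusted p = 0.342, unadjusted p = 0.0342), with 0.48 and 0.51 in the 2 knockout libraries. Gnl3, or nucleostemin, a nucleolar GTPase abundant in stem cells, read 24.5 and 25.0 against 30.0 and 46.6 FPKM. Npm1, which encodes the histone chaperone nucleophosmin, had the highest mean level of the 47 genes. It read 110 and 110 FPKM in the control pair, while knockout library 1 held 110 and knockout library 2 held 213. Knockout library 1 thus matched the controls (0.01 above their mean), and the difference of 0.48 became -0.06 with the GC and length trend removed. Mrto4, which takes part in building the stalk of the large subunit, read 11.3 and 12.2 against 13.2 and 27.8 FPKM. RefSeq lists 2 pseudogene copies of Mrto4, so its level is uncertain.

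Pes1, Bop1 and Wdr12 form 1 complex, and their rows differed in direction. Pes1 read 24.0 and 24.4 FPKM in the controls, against 22.4 and 32.2 in the knockout libraries. Bop1 read 33.6 and 31.6 against 33.6 and 26.1, low in knockout library 2 only. Wdr12, the lowest of the 47 in mean level, read 3.72 and 3.18 against 3.42 and 9.53, high in knockout library 2 only. Their transcripts hold 50.3%, 58.2% and 40.4% GC. The 3 large subunit genes below the controls were Nop2, an RNA methyltransferase (25.8 and 26.7 against 22.8 and 23.0 FPKM), Ppan (30.6 and 28.2 against 27.9 and 21.2) and Wdr74 (33.7 and 37.2 against 31.8 and 33.2). Differences of the other overlapping genes were 0.35 for Nop16, 0.33 for Nip7, 0.22 for Rrs1, 0.11 for Pa2g4, -0.00 for Grwd1 and -0.26 for Ddx18.

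Exosc5 had the smallest p of the 47 genes. It encodes a core subunit of the RNA exosome, which trims and degrades precursor RNA. It read 43.5 and 41.5 FPKM in the controls, against 24.0 and 25.9 in the knockout libraries. Both knockouts were low and close to each other, at 0.57 and 0.61 times the control mean. The difference was -0.75 (SE 0.154, 95% interval -1.18 to -0.31; limma adjusted p = 0.279, unadjusted p = 0.00948). Knockout library 1 alone gave -0.80 and knockout library 2 alone -0.70. Such fits take their spread from the controls alone, so only the size of the difference is given. Pus1, a pseudouridine synthase for transfer RNA, read 22.1 and 21.9 against 23.3 and 24.7 FPKM. Ipo4, an importin that carries histones and ribosomal proteins, read 17.3 and 17.6 against 14.8 and 13.2, and its difference of -0.30 was 0.03 with the GC and length trend removed.

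The 5 genes that supply nucleotides and polyamines had a median difference of 0.22, from -0.18 for Cad to 0.42 for Nme1. Cad, which starts pyrimidine synthesis, read 11.4 and 11.6 FPKM in the controls, against 9.70 and 10.3 in the knockout libraries (difference -0.18, SE 0.152; 0.31 with the GC and length trend removed). Nme1 and Nme2, nucleoside diphosphate kinases encoded by neighbouring paralogues that can share reads, read 80.1 and 90.6 against 98.8 and 133 FPKM, and 118 and 103 against 104 and 181. Nme1 lay above the controls in both knockouts and Nme2 in knockout library 2 only. Srm, the spermidine synthase, read 36.9 and 42.8 against 41.2 and 30.6 FPKM. Dctpp1, which removes excess dCTP, read 57.5 and 67.9 against 61.3 and 87.2, and the groups of both overlapped.

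The last 5 genes act in translation and coactivation. Eif4e, which binds the cap of messenger RNA, read 11.2 and 12.0 FPKM in the control pair, while knockout library 1 held 12.2 and knockout library 2 held 42.6. Its difference of 0.93 (SE 0.641; limma adjusted p = 0.553) was 0.07 without knockout library 2. The helicase Eif4a1, which works with it, read 51.4 and 52.2 against 52.4 and 63.5 FPKM. Pprc1, a coactivator related to PGC-1, read 16.0 and 17.5 against 12.8 and 9.75 FPKM (difference -0.54, SE 0.203; adjusted p = 0.390). It lay below the controls in both knockouts, and its difference was -0.14 with the GC and length trend removed. Aimp2, a scaffold of the aminoacyl-tRNA synthetases, and Farsa, a subunit of phenylalanyl-tRNA synthetase, had differences of -0.24 and -0.14 and overlapped.

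**Figure D4:**
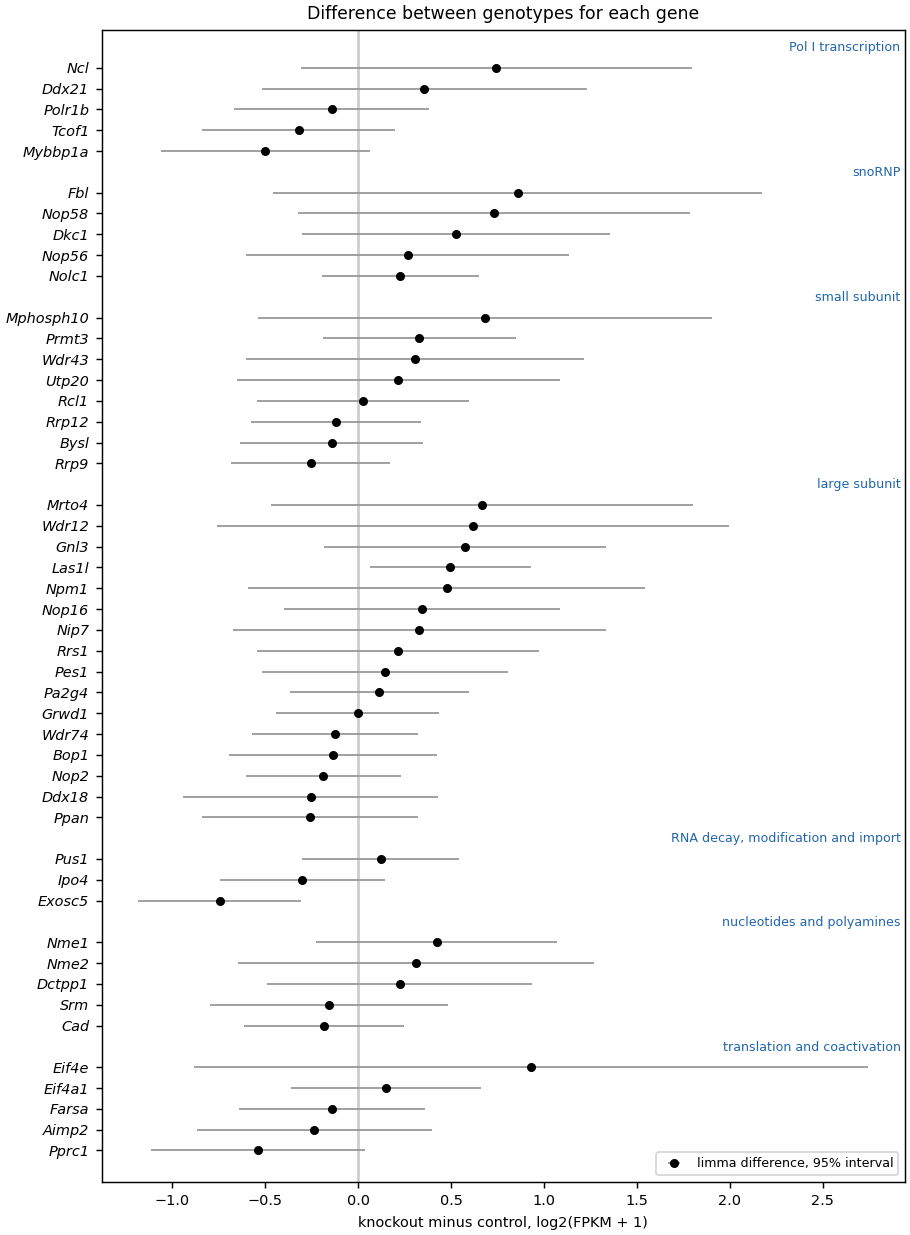
Limma difference between knockout and control (log2(FPKM + 1), points) with its 95% interval (bars, n = 2 libraries per group) for the 47 genes, sorted within each role. The intervals of Las1l (0.06 to 0.93) and Exosc5 (-1.18 to -0.31) do not include 0, and those of the other 45 genes do.

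Other genes of the same pathway were read from 4 lists, of which 116 of 117 genes were in the table and tested. Limma called 0 of the 116, with 1 higher and 1 lower at an unadjusted p under 0.05. Their median difference was 0.18. Taken alone, knockout library 1 gave -0.06 and knockout library 2 gave 0.41. Both knockouts lay above both controls for 32 genes (27.6%) and below for 17 (14.7%), against the 21.5% and 30.2% of all tested rows given above. Of 14 genes of the polymerase I machinery, 5 lay above and 4 below. Polr1a, the largest subunit, read 11.3 and 12.0 FPKM in the controls, against 9.30 and 8.81 in the knockout libraries, while the shared subunit Polr1d read 75.0 and 76.4 against 82.7 and 173. Of 13 further snoRNP genes 4 lay above and 1 below. Nhp2l1, which binds box C/D RNA, read 12.3 and 13.7 against 15.2 and 77.3 FPKM, and Gar1, of box H/ACA particles, read 25.7 and 25.8 against 28.7 and 33.7. Among 42 small subunit factors 11 lay above, such as Nol7 (50.6 and 46.9 against 61.4 and 103 FPKM), and 4 below, such as Nol6 (18.4 and 18.7 against 14.4 and 11.6). Among 47 large subunit factors 12 lay above and 8 below. Ddx56, a nucleolar helicase, read 37.2 and 43.9 against 25.5 and 15.5 FPKM (difference -0.98, SE 0.299; limma adjusted p = 0.339), and Lyar, a nucleolar growth regulator, read 32.5 and 31.4 against 41.7 and 49.3.

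The protein parts of the ribosome and the Myc network were set beside these genes. Over the same contrast the median was 0.12 over 76 rows of cytosolic ribosomal proteins, many of which have near-identical copies, and 0.29 over 75 rows of mitochondrial ribosomal proteins, of which 39 (52.0%) lay above the controls and 4 (5.33%) below, where 21.5% and 30.2% of all tested rows did so. Of 12 genes of the Myc, Max and Mxd network, 8 (66.7%) lay below the controls in both knockouts and 1 (8.33%) above, with a median of -0.42, beside the same shares of all rows. Myc itself is counted among the 12 and the 8, and its lower level was known when the genes were chosen. Mycl1, a relative of Myc, read 51.5 and 52.4 FPKM in the controls, against 12.9 and 20.8 in the knockout libraries (difference -1.60, SE 0.276; limma adjusted p = 0.247). Myc's partner Max read 69.0 and 71.8 against 66.7 and 43.7 FPKM. Among repressors that bind Max, Mnt read 17.3 and 16.3 against 9.74 and 5.13 FPKM and Mxd1 read 112 and 108 against 66.4 and 73.2, and both lay below the controls. Mga, a repressor that also binds Max, read 3.76 and 3.10 against 2.41 and 5.31 FPKM (difference 0.07), and the groups overlapped. Mlx, which pairs with other members of the network, read 34.9 and 37.0 against 51.6 and 58.3 FPKM and lay above. None of these 12 was called by limma, with 1 higher and 4 lower at an unadjusted p under 0.05, where 3.44% and 9.76% of all rows were higher and lower. Myc was among the 4 lower.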

How the data were processed

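The authors deposited 1 table of FPKM values with a column for each of the 4 libraries. Per the submitters' processing notes, TopHat2 and Cuffdiff were used with build mm9; their versions, settings and annotation are not given in what was used here. The estimated depth is in the report. The table held 29955 rows; of rows repeating a symbol (84) the one with the higher mean was kept. FPKM is not a count, so the 13716 rows averaging at least 1 FPKM entered limma 3.58.1 (R 4.3.3) as log2(FPKM + 1), with a trend on mean expression, and p-values were adjusted by Benjamini-Hochberg over all of them, with a threshold of 0.05. With 2 libraries against 2, an exact permutation test of a single value cannot go below p = 0.333.

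The members and lists were chosen with earlier results of these data known. Named genes are all members, the Myc network and, per other list and direction, up to 3 genes of smallest p among those whose groups did not overlap; a few of these are printed. Marker sums are over short fixed lists. Alternatives were pseudocounts of 0.1 and 0.01, no filter, a filter at 5 FPKM, median centring, quantile scaling, a replicate block and leaving out each library. Removal of a trend (splines with 3 df on GC content and log2 length from GENCODE M21, 84.4% of tested rows) and a crossed block were added after seeing the data. Tested on 10 simulated sets of 13716 rows for the comparison of knockout with control, limma recovered 0% of genes changed by a log2 difference of 1, 26.2% at 2, 47.6% at 3 and 68.2% at 5, with 1.7 false calls per set. The simulated spread was the same in both groups. In the data the median gap over all tested rows was 0.088 between the controls and 0.488 between the knockouts, so these rates may not hold here. Coordinates of promoters are RefSeq's on GRCm38.p6, not mm9.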

Additional observations from a re-analysis of the deposited data

How the results depend on the processing

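Depth limits Fbl most among the 47 genes (an estimated 75.7 fragments in its lowest library). With 2 libraries per group and knockout library 2 apart from the rest, the counts rest on which knockout library is used. Leaving out 1 library in turn, limma called between 0 and 8397 rows of the table and between 0 and 30 of the 47 genes, where a lone sample is assumed to vary like the other group. The median of the 47 genes ran from -0.0246 to 0.29. The number above the controls ran from 16 to 28 and the number below from 14 to 20. The share of all tested rows was not counted in these settings. The difference of Myc, whose level was known when the genes were chosen, ran from -0.91 to -0.59. The count of called rows was 4 with no filter and 0 once the GC and length trend was taken out, which also left 7 genes below the controls; fewer rows were tested in the latter. The replicate numbers are not said to mark pairs and deviations correlated at -0.115 between same-numbered libraries. With a replicate block 13 rows of the table and 0 of the 47 genes were called, and with crossed numbers also 13. Under the 2 other pseudocounts, no filter and both blocks, none of the 81 differences followed changed sign, nor did any of the 77 that passed the filter at 5 FPKM, which left out Wdr12, Mycn, Mga and Znhit6. Leaving out a library changed the sign for Ddx21 (-0.0132 to 0.73), Nop56 (-0.10 to 0.63), Rcl1 (-0.15 to 0.21), Utp20 (-0.15 to 0.58), Wdr43 (-0.0837 to 0.70), Bop1 (-0.31 to 0.042), Pes1 (-0.11 to 0.40), Wdr12 (-0.00634 to 1.25), Rrs1 (-0.0837 to 0.51), Nip7 (-0.11 to 0.77), Grwd1 (-0.0732 to 0.0678), Srm (-0.37 to 0.0538), Nme2 (-0.0851 to 0.71), Dctpp1 (-0.0272 to 0.47), Mycn (-0.0692 to 0.0102), Mga (-0.38 to 0.51). Removing the trend changed it for Tcof1 (0.15), Rcl1 (-0.10), Bysl (0.0848), Rrp12 (0.23), Npm1 (-0.0557), Bop1 (0.0922), Grwd1 (0.12), Pa2g4 (-0.12), Ipo4 (0.0297), Cad (0.31), Srm (0.0295), Eif4a1 (-0.18), Mycn (0.0835), Mga (-0.17), Mlxip (0.20), Taf1d (-0.0421), Taf1c (0.23), Ddx54 (0.0554). Median centring changed it for Grwd1 (0.0545), Mycn (0.0277), and quantile scaling for Grwd1 (0.0475), Mycn (0.0306). With either scaling 19 of the 47 genes lay above the controls and 8 below, and their median was 0.21 and 0.20 in turn. The share of all rows was not counted there. All FPKM values summed to 528147 and 533824 in the controls and to 543952 and 609635 in knockout libraries 1 and 2. In all, 25 of the 47 genes kept their sign under each of the 13 alternatives. The cause of these changes was not tested.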
